A study of Mus musculus with 272 samples.

Results

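The Hox genes of the HoxA, HoxB, HoxC and HoxD clusters were examined in mouse muscle stem cells (MuSCs). The members were taken by gene name from the GENCODE M21 annotation of mm10, and 38 Hox genes of its 21938 protein-coding genes were analysed, 10 in HoxA, 10 in HoxB, 9 in HoxC and 9 in HoxD. The cells came from hindlimb muscle of Pax7Cas9 mice, in which Pax7Cre, active in the muscle stem cell lineage, switches on a Cas9-EGFP transgene at *Rosa26*, and GFP+ cells were sorted. All libraries share this genotype and sort, and the series holds no treated chromatin group. The labels do not give the age of the mice, whether the replicates were separate animals, or whether the cells had received sgRNAs. Open chromatin was mapped by ATAC-seq, and H3K4me3, H3K27ac and H3K27me3 by ChIP-seq, with 2 libraries of each.

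Hox genes encode homeodomain transcription factors that give cells their position along the body axis and along the limb. They lie in tandem on the same strand, so that each cluster has a 3′ end, whose genes are used early and towards the head, and a 5′ end, whose genes are used late, towards the tail and in the distal limb. Genes in the same place of different clusters descend from a common ancestor and carry the same number, the paralogue group. Polycomb repressive complexes lay down and read H3K27me3 over Hox genes that are off, H3K4me3 marks promoters, H3K27ac marks active promoters and enhancers, and a promoter that carries both H3K4me3 and H3K27me3 is called bivalent. Adult limb cells, satellite cells among them, often keep a Hox pattern set in the embryo.

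The peak lists held 140716 and 94382 ATAC-seq peaks in replicates 1 and 2 on the assembled chromosomes, 20512 and 18001 H3K4me3 peaks, 24209 and 18584 H3K27ac peaks, and 6064 and 10458 H3K27me3 peaks. They give no read numbers, so the depth behind a peak is unknown, and a region without a peak may be either unmarked or below detection. The fold of a peak is the enrichment at its summit over the local background, as the authors' peak caller wrote it, and was compared only within a list. The fold given for a gene is that of the highest peak touching its window, which may lie at the edge and belong to a neighbour. A promoter was taken as 3 kb on either side of every annotated transcription start site (TSS) of a gene. A gene counted as marked when a peak touched this window in both replicates. The highest peak lay over 1 kb from every TSS in 9 of 35 and 7 of 34 members with ATAC-seq peaks in replicates 1 and 2, 6 of 34 and 8 of 32 with H3K4me3, 3 of 19 and 3 of 15 with H3K27ac, and 8 of 28 and 15 of 30 with H3K27me3. With 2 libraries per feature and no groups to compare, no test was made. The percentages of all protein-coding genes are the background for counts by this rule with all listed peaks. Of 13 MuSC marker genes, 13 had H3K4me3, 12 had H3K27ac (*Calcr* had none) and 0 had H3K27me3. Of 10 fibro-adipogenic markers, 6 had ATAC-seq peaks, 5 had H3K4me3, 3 had H3K27ac (*Cd55*, *Dpt* and *Col15a1*) and 1 had H3K27me3 (*Pdgfra*), and *Dcn* and *Lum* had no peak of any feature. Of 10 endothelial markers, 8 had ATAC-seq peaks, 5 had H3K4me3, 1 had H3K27ac (*Tek*) and 0 had H3K27me3. The part of other cells in the Hox peaks was not tested.

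The promoters at the ends of the range of marks are shown first. For each cluster, these are the 250 bases before the TSS of the member with the highest H3K27ac fold and of the member with the highest H3K27me3 fold, each taken by the lower of both replicates. They were read from GRCm38.p6 (mm10), 5′ to 3′ on the strand of the gene, with every CpG in capitals, since CpG-rich promoters are the usual sites of both H3K4me3 and Polycomb binding. HoxB had no member with H3K27ac in both replicates, and its highest H3K27me3 fold was shared by *Hoxb7* and *Hoxb8*, of which *Hoxb8* is shown. For *Hoxa9* the most upstream TSS with no annotated exon before it was used.
Hoxa9, chr6:52230533-52230782, minus strand, H3K27ac: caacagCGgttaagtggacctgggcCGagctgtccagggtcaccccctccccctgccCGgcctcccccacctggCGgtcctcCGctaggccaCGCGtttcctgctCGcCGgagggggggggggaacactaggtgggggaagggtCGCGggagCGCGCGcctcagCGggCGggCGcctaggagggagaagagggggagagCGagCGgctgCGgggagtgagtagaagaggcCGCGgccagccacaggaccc
Hoxc9, chr15:102976189-102976438, plus strand, H3K27ac: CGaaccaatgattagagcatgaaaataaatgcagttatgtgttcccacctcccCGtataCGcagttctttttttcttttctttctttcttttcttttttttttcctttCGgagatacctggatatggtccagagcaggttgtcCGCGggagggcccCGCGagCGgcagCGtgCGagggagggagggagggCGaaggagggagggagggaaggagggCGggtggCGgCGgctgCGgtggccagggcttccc
Hoxd8, chr2:74704365-74704614, plus strand, H3K27ac: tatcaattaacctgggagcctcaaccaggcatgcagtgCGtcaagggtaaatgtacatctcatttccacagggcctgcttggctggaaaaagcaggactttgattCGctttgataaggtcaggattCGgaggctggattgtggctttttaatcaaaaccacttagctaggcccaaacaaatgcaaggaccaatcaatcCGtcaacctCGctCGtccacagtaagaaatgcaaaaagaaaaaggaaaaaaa
Hoxa13, chr6:52260881-52261130, minus strand, H3K27me3: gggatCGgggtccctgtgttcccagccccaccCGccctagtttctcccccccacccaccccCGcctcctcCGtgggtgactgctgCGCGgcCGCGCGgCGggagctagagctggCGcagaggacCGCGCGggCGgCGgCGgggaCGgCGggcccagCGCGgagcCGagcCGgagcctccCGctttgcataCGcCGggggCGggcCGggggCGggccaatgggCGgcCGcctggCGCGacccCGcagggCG
Hoxb8, chr11:96281655-96281904, plus strand, H3K27me3: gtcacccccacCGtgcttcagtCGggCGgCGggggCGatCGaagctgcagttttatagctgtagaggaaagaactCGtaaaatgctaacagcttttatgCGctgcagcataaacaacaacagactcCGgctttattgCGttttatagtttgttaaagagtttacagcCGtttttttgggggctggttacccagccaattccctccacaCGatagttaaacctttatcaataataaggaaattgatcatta
Hoxc13, chr15:102920853-102921102, plus strand, H3K27me3: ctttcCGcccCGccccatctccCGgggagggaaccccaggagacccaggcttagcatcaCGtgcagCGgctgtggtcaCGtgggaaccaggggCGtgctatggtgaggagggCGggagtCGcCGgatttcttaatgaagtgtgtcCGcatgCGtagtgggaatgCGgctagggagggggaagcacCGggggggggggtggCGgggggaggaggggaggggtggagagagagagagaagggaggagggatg
Hoxd13, chr2:74668060-74668309, plus strand, H3K27me3: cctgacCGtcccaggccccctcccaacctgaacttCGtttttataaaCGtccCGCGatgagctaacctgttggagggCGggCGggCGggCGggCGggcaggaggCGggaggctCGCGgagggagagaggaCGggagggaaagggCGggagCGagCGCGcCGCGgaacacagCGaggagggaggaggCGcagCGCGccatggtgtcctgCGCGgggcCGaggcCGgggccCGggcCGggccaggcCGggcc

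These windows held 22 CpGs in *Hoxa9*, 16 in *Hoxc9*, 6 in *Hoxd8*, 35 in *Hoxa13*, 12 in *Hoxb8*, 15 in *Hoxc13* and 31 in *Hoxd13*. The window of *Hoxa9* lay in H3K27ac peaks for 250 and 106 of its bases in replicates 1 and 2 and held no H3K27me3 peak. The windows of *Hoxa13* and *Hoxd13* lay in H3K27me3 peaks over all 250 bases in both replicates, and also in H3K4me3 peaks for 250 and 250 bases and for 250 and 230 bases. The window of *Hoxd8* held no H3K27ac base, since its H3K27ac peaks lay elsewhere in the promoter, and lay in H3K27me3 peaks for 104 and 127 bases. The *Hoxc9* window lay in an H3K27ac peak in replicate 1 alone. CpG numbers thus varied at both ends of the range, from 6 to 22 in the H3K27ac windows and from 12 to 35 in the H3K27me3 windows. No background was taken for windows of this size.

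With all listed peaks, H3K27me3 was the mark by which the Hox genes stood furthest from other genes. It was found at the promoters of 27 of 38 members in both replicates, whereas 4.81% of all protein-coding genes carried it. H3K27ac was found at 14 members (background 46.6%), H3K4me3 at 32 (60.8%) and ATAC-seq peaks at 33 (67.8%). Both replicates gave the same call for 35 members in ATAC-seq, 36 in H3K4me3, 32 in H3K27ac and 34 in H3K27me3. The H3K27me3 lists were called on p, a looser threshold than that of the other lists. With peaks limited to a −log10 q of at least 5, H3K27me3 was found at 6 members. The share of protein-coding genes was not computed at this limit, so this count has no background. In 16 members H3K4me3 and H3K27me3 were found without H3K27ac, a state held by 3.06% of protein-coding genes. In 9 members H3K4me3 and H3K27ac were found without H3K27me3 (45.4%), in 5 all 3 marks were found (0.789%), in 6 H3K27me3 alone (0.953%), and in 2 H3K4me3 alone (11.5%). No member lacked both H3K4me3 and H3K27me3, as 38.3% of protein-coding genes did. Since the libraries come from many cells, marks on the same DNA and marks in different cells cannot be told apart.

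**Figure D1:**
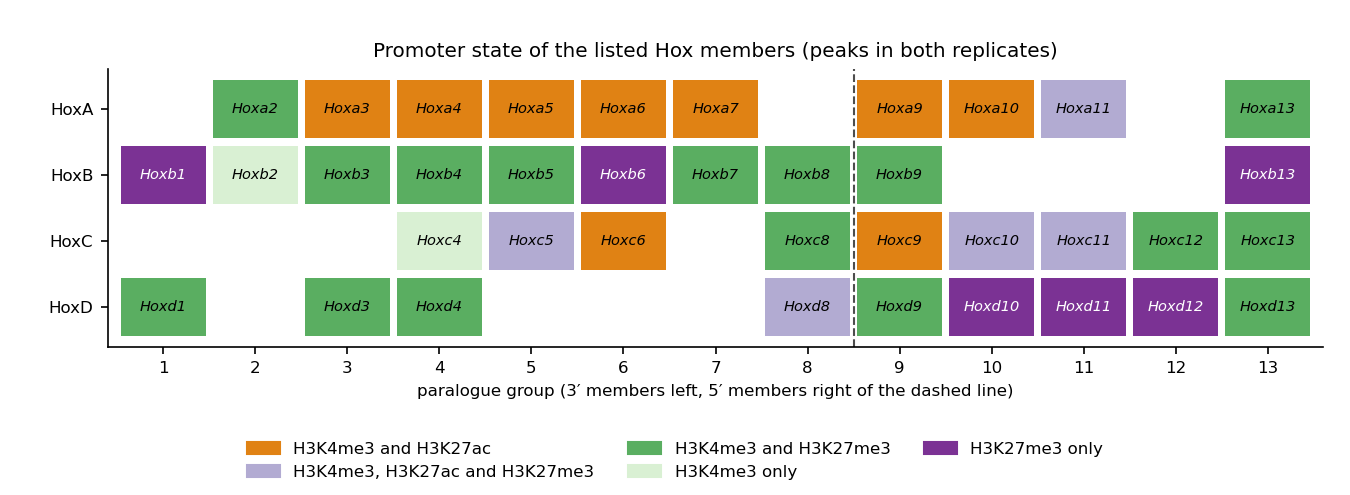
Promoter state of each listed member, by cluster (rows) and paralogue group (columns), from peaks found in both replicates, with colours as in the legend and blank cells where no member was analysed. The 7 members with H3K4me3 and H3K27ac alone in HoxA form an unbroken run from Hoxa3 to Hoxa10 among its members. Hoxa3 has both marks at a start site between Hoxa6 and Hoxa7, not at its most 3′ protein-coding start site. No HoxB member has H3K27ac in both replicates.

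HoxA was the cluster with the most H3K27ac. Its 10 members span chromosome 6 from 52162417 to 52260880, all on the minus strand, and 8 of them had H3K27ac in both replicates. *Hoxa9* (ENSMUSG00000038227.15), a gene of the middle of the cluster known for its role in blood stem cells and leukaemia, had the highest H3K27ac fold of all members, 19.2 in replicate 1 and 13.2 in replicate 2. Peaks of H3K27ac covered 82.4% and 71.9% of its promoter window, and peaks of H3K4me3 covered 100% and 92.1%. H3K27me3 was limited there to a peak of 84 bp in replicate 1. *Hoxa10*, which patterns the thigh segment of the limb, had H3K27ac folds of 11.9 and 13.2 and H3K4me3 folds of 17.3 and 18.2, and its strongest peaks were in part the same as those of *Hoxa9*. *Hoxa7* had H3K27ac folds of 8.45 and 8.96, and *Hoxa3* of 6.59 and 5.15. These peaks of *Hoxa3* lay by its most upstream start site, between *Hoxa6* and *Hoxa7*. Its most 3′ protein-coding start site lay in a stretch of 14.2 kb and 14.4 kb without H3K4me3 peaks. *Hoxa4* had the highest H3K4me3 fold of all members, 29.6 and 24.9, with H3K27ac at 4.98 and 6.99. *Hoxa5* had H3K27ac folds of 4.83 and 3.76, and *Hoxa6* of 4.22 and 4.41, although within 1 kb of its protein-coding TSS *Hoxa6* had H3K27ac in replicate 1 alone (3.83). None of the members from *Hoxa3* to *Hoxa7*, nor *Hoxa10*, had an H3K27me3 peak in either replicate.

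The ends of HoxA differed from its middle. *Hoxa11*, needed for the forearm and lower leg, carried all 3 marks, with H3K27ac folds of 5.75 and 5.52 and H3K27me3 folds of 5.25 and 6.14. H3K27me3 covered 33.7% and 49.7% of its window. *Hoxa13* (ENSMUSG00000038203.18), needed for hands and feet, had no H3K27ac peak, and H3K27me3 covered 63.1% and 78.6% of its window, with folds of 6.38 and 6.16. It kept H3K4me3 peaks with folds of 12.2 and 11.6 and ATAC-seq peaks with folds of 12.7 and 7.09. *Hoxa2*, a gene of the hindbrain and the second pharyngeal arch, lay at the 3′ end of the analysed cluster and was bivalent, with H3K4me3 folds of 7.39 and 4.21 and H3K27me3 folds of 3.93 and 4.79. Its ATAC-seq peak was found in replicate 2 alone, with a fold of 3.33. Both ends of the cluster thus carried H3K27me3, although the 3′ end carried far less. It covered 1.59% and 8.09% of bases between the start sites of *Hoxa2* and *Hoxa3*, and 35.6% and 51.6% between *Hoxa11* and *Hoxa13*. Between *Hoxa3* and *Hoxa10* no H3K27me3 was found in either replicate, apart from the 84 bp peak at *Hoxa9*. Between *Hoxa10* and *Hoxa11* it covered 5.85% and 6.05%.

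HoxC resembled HoxA in H3K4me3 and H3K27ac, and its H3K27ac lay further towards the 5′ end. H3K27me3 was found in both replicates at 6 of 9 HoxC members, against 3 of 10 in HoxA. The 9 HoxC members span chromosome 15 from 102921103 to 103036852 on the plus strand, and all 9 had H3K4me3 and ATAC-seq peaks in both replicates. H3K27ac was found in both replicates at *Hoxc5*, *Hoxc6*, *Hoxc9*, *Hoxc10* and *Hoxc11*. *Hoxc9*, a gene of the thoracic region, had the highest of these folds by the lower replicate, 9.58 and 8.83, next to H3K4me3 folds of 11.1 and 10.1 within 1 kb of a TSS, and its H3K27me3 peaks were found in replicate 2 alone, at 3.07. A stronger H3K4me3 peak of replicate 1, with a fold of 20.7, touched its window by 2 bp. *Hoxc10* (ENSMUSG00000022484.7), a gene of the lumbar and hindlimb region, had the highest ATAC-seq fold of all members, 30.2 and 31.0, which ranked 64 among all peaks of replicate 2 and 2324 in replicate 1. H3K27ac covered 65.0% and 53.1% of its window and H3K4me3 91.2% and 82.1%, while H3K27me3 covered 6.53% and 7.45%. Its H3K4me3 folds were 10.5 and 4.28, and its H3K27me3 folds 5.61 and 3.42. Within 1 kb of its TSS, the replicate 2 folds were lower, 2.73 for H3K4me3 and 2.08 for H3K27me3. *Hoxc11* had H3K27ac folds of 6.90 and 5.88 and H3K27me3 folds of 5.63 and 4.79, the latter over 14.2% and 24.2% of its window. *Hoxc6*, a gene of the brachial and thoracic region, had H3K27ac folds of 8.43 and 8.09 and an H3K27me3 peak in replicate 2 alone, but no H3K27ac peak within 1 kb of its protein-coding TSS.

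An annotated noncoding transcript of *Hoxc5* starts beside *Hoxc10*, so that the window of *Hoxc5* took in peaks around that gene. Its H3K27ac folds of 8.97 and 7.36 were the same as those of *Hoxc10*, and its H3K27me3 folds were 5.61 and 2.82. Within 1 kb of the TSS of its protein-coding transcript, *Hoxc5* had H3K4me3 folds of 14.2 and 10.2 and ATAC-seq folds of 11.4 and 12.7, with no H3K27ac and no H3K27me3 peak. *Hoxc4* at the 3′ end had H3K4me3 folds of 16.6 and 13.3, no H3K27me3 peak in either replicate, and H3K27ac in replicate 1 alone, at 4.22. *Hoxc8*, known for its part in the identity of brachial motor neurons, was bivalent, with H3K4me3 folds of 9.69 and 7.21 and H3K27me3 folds of 4.13 and 5.13. *Hoxc12* and *Hoxc13*, the latter a gene of hair and nail, closed the 5′ end with H3K27me3 over 54.9% and 79.6% and over 64.4% and 85.5% of their windows. H3K4me3 at both was low, with folds of 4.31 and 4.01 at *Hoxc12* and 4.33 and 5.35 at *Hoxc13*. *Hoxc13* was nevertheless open, with ATAC-seq folds of 12.8 and 8.05.

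HoxB held H3K27me3 at nearly all of its members and almost no H3K27ac. Its 10 members span chromosome 11 from 96194316 to 96368256 on the plus strand. H3K27me3 was found at 9 members in both replicates and at *Hoxb2* in replicate 2 alone. H3K27ac was found at 0 members in both replicates, at *Hoxb3* in replicate 1 (fold 4.02) and at *Hoxb2* in replicate 2 (4.41). *Hoxb7* and *Hoxb8*, neighbours that share peaks, had H3K27me3 folds of 6.00 and 8.56, and H3K27me3 covered 37.9% and 70.8% of the window of *Hoxb7* and 53.5% and 69.9% of that of *Hoxb8*. ATAC-seq peaks with folds of 14 and 11 lay at the edge of the *Hoxb8* window, 2855 and 2871 bp from its nearest TSS. The H3K4me3 folds of both genes were 5.66 and 4.56, and neither an ATAC-seq nor an H3K4me3 peak lay within 1 kb of any TSS of *Hoxb8*. Within 1 kb of a TSS of *Hoxb7*, the H3K4me3 folds were 3.23 and 3.41. *Hoxb9* had H3K27me3 over 55.4% and 71.2% of its window, at folds of 5.25 and 5.48, with H3K4me3 folds of 4.85 and 4.01. *Hoxb5* had H3K4me3 folds of 4.35 and 2.56 and H3K27me3 folds of 5.25 and 6.16.

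Towards the 3′ end of HoxB, *Hoxb2*, *Hoxb3* and *Hoxb4* had higher H3K4me3 folds than the other HoxB members with a peak. Coverage did not follow this order. Of the stretches between neighbouring start sites, that from *Hoxb7* to *Hoxb8* had the most H3K4me3 in both replicates. Its mean was 25.3%, against 18.8% from *Hoxb1* to *Hoxb2*. *Hoxb4*, a gene used to expand blood stem cells, had H3K4me3 folds of 14.7 and 10.2 over 38.8% and 27% of its window, together with H3K27me3 folds of 5.63 and 6.85. *Hoxb2*, a hindbrain gene, had H3K4me3 folds of 9.15 and 7.21 over 43.8% and 25.5% of its window (9.15 and 4.27 within 1 kb of a TSS), and H3K27me3 in replicate 2 at 6.16. *Hoxb3*, with 4 start sites, had H3K4me3 peaks with folds of 9.16 and 5.21 within 1 kb of a TSS, while the higher peaks of 14.7 and 5.81 reached 134 and 55 bp into its window from the side of *Hoxb4*. It also had H3K27me3 folds of 5.25 and 4.79. *Hoxb1*, which acts in a segment of the hindbrain, had neither H3K4me3 nor ATAC-seq peaks, and its H3K27me3 folds were 4.13 and 4.79. *Hoxb13*, set apart from the rest of the cluster and known for its role in prostate, had the same pattern, with H3K27me3 folds of 4.88 and 4.79 over 27.4% and 46.1% of its window. *Hoxb6* had H3K27me3 over 25.1% and 62.2% of its window, and an H3K4me3 peak in replicate 1 alone (4.66).

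HoxD had H3K27me3 at all 9 members in both replicates. It spans chromosome 2 from 74668310 to 74765142 on the plus strand. *Hoxd8* (ENSMUSG00000027102.4) was the only HoxD member with H3K27ac in both replicates, at folds of 6.13 and 5.52. It had H3K4me3 folds of 14.4 and 13 and H3K27me3 folds of 4.50 and 5.02. *Hoxd9* beside it had H3K27ac in replicate 1 alone (5.37), H3K4me3 folds of 13.1 and 9.75, and H3K27me3 over 31.4% and 66.4% of its window. *Hoxd10*, *Hoxd11* and *Hoxd12*, genes of the distal limb, had H3K27me3 without H3K4me3 in both replicates, although *Hoxd11* had weak H3K4me3 in replicate 1 (3.41). Their H3K27me3 covered 46.1% and 77.6%, 49.3% and 79.7%, and 32.4% and 65.9% of the windows. *Hoxd11* (ENSMUSG00000042499.13) held the highest H3K27me3 fold of all members, 12 in replicate 2, which ranked 4 among all peaks of that list, while in replicate 1 the fold was 5.63.

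*Hoxd13* (ENSMUSG00000001819.4), whose human counterpart is mutated in fused digits, had the highest H3K27me3 fold by the lower replicate, 7.13 and 8.21, over 61.9% and 82.8% of its window. H3K4me3 was also found there, at folds of 6.60 and 5.01, and ATAC-seq peaks at 7.50 and 5.42. At the 3′ end, *Hoxd1* was bivalent, with H3K4me3 folds of 6.82 and 4.56 and H3K27me3 folds of 5.25 and 5.13. *Hoxd3* and *Hoxd4* share an upstream start, and both were called bivalent through its H3K4me3 peak, with folds of 11.0 and 8.62. This start also lay in an H3K27ac peak in replicate 1 alone, with a fold of 4.22. At the protein-coding TSS of *Hoxd4*, no H3K4me3, H3K27ac or ATAC-seq peak lay within 1 kb, and the H3K27me3 fold was 3.38 and 3.42.

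**Figure D2:**
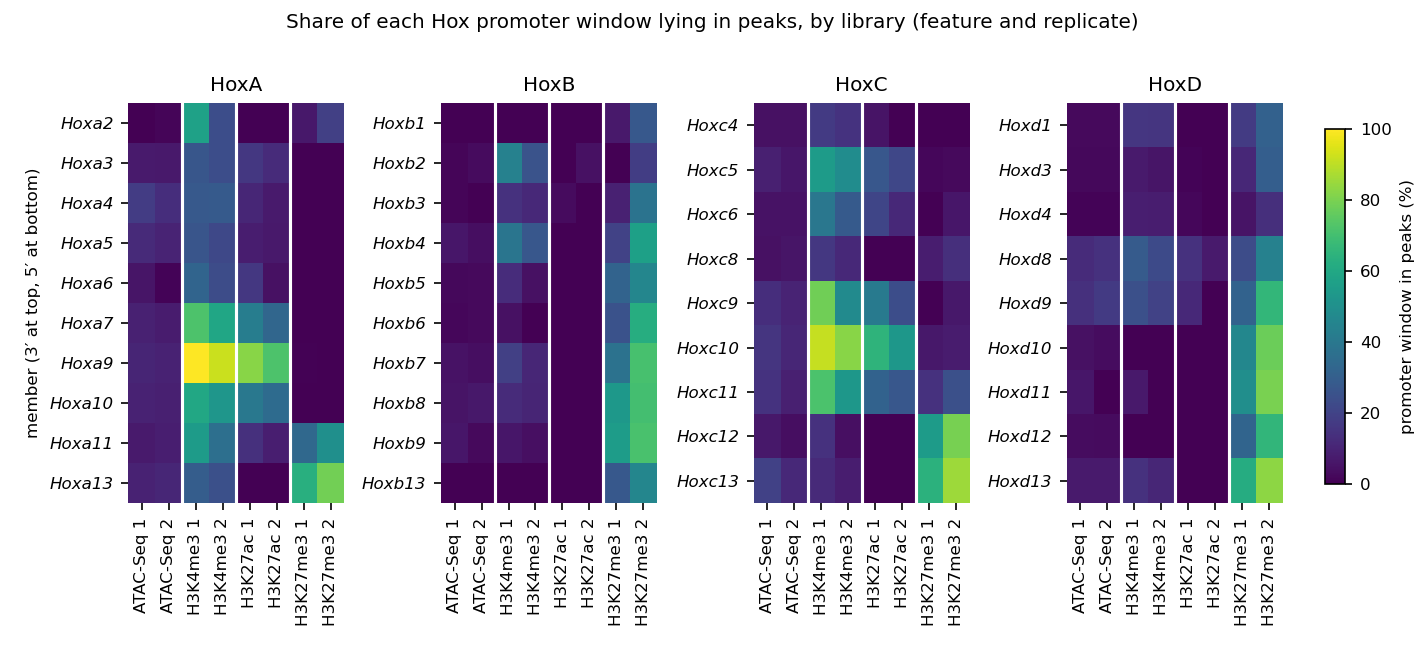
Percent of each member's promoter window (3 kb on either side of its start sites) that lies in peaks, for 4 features and 2 replicates each, with members ordered from the 3′ to the 5′ end of their cluster. H3K27ac is brightest at Hoxa9 (82.4% and 71.9%), and H3K27me3 is brightest at the 5′ end of each cluster except HoxB, where Hoxb7 to Hoxb9 exceed Hoxb13.

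Over whole clusters, from the first to the last analysed member, the clusters fell into pairs by H3K4me3 and H3K27ac. H3K4me3 peaks covered 41.4% and 32.1% of HoxA in replicates 1 and 2 (mean 36.8% ± 6.52, SD, n = 2) and 40.1% and 26.4% of HoxC (33.3% ± 9.75). They covered 7.78% and 4.61% of HoxB (6.19% ± 2.24) and 8.18% and 5.54% of HoxD (6.86% ± 1.87). The lowest library of HoxA and HoxC was thus above the highest of HoxB and HoxD. H3K27ac showed the same order, with 20.9% and 15.7% of HoxA, 15.8% and 10.4% of HoxC, 1.96% and 0.496% of HoxD, and 0.312% and 0.176% of HoxB. The genome as a whole was covered by H3K27ac to 0.744% and 0.540%, so that HoxB lay below it in both replicates and HoxD in replicate 2. In counts, 13 of 19 HoxA and HoxC members had H3K27ac in both replicates, as had 1 of 19 HoxB and HoxD members. Taken by itself, replicate 1 had it at 5 of these 19 members and replicate 2 at 2.

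H3K27me3 coverage ran the other way. It was 22.6% and 42.6% in HoxD, 14.8% and 30.1% in HoxB, 11.1% and 19.7% in HoxC, and 6.77% and 10.8% in HoxA, in the same order in both replicates. With peaks limited to a −log10 q of at least 5, HoxC (mean 6.33%) lay above HoxD (5.31%), HoxB (4.46%) and HoxA (1.86%). Replicate 2 had more H3K27me3 in every cluster, as it had in the genome (0.0608% and 0.118%), and across replicates the range of HoxB overlapped those of HoxC and HoxD. Relative to the genome, coverage was 371 and 360 times higher in HoxD, and 111 and 90.8 times higher in HoxA. ATAC-seq peaks covered 8.47% and 6.79% of HoxA, 6.76% and 5.56% of HoxC, 4.28% and 4.15% of HoxD, and 1.53% and 1.27% of HoxB, against 0.925% and 0.879% of the genome. HoxB holds a long gene-poor stretch before *Hoxb13*. Without it, from *Hoxb9* to *Hoxb1*, H3K4me3 covered 14% and 8.28% and H3K27me3 18.1% and 39.3%, a span chosen after the values had been seen.

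**Figure D3:**
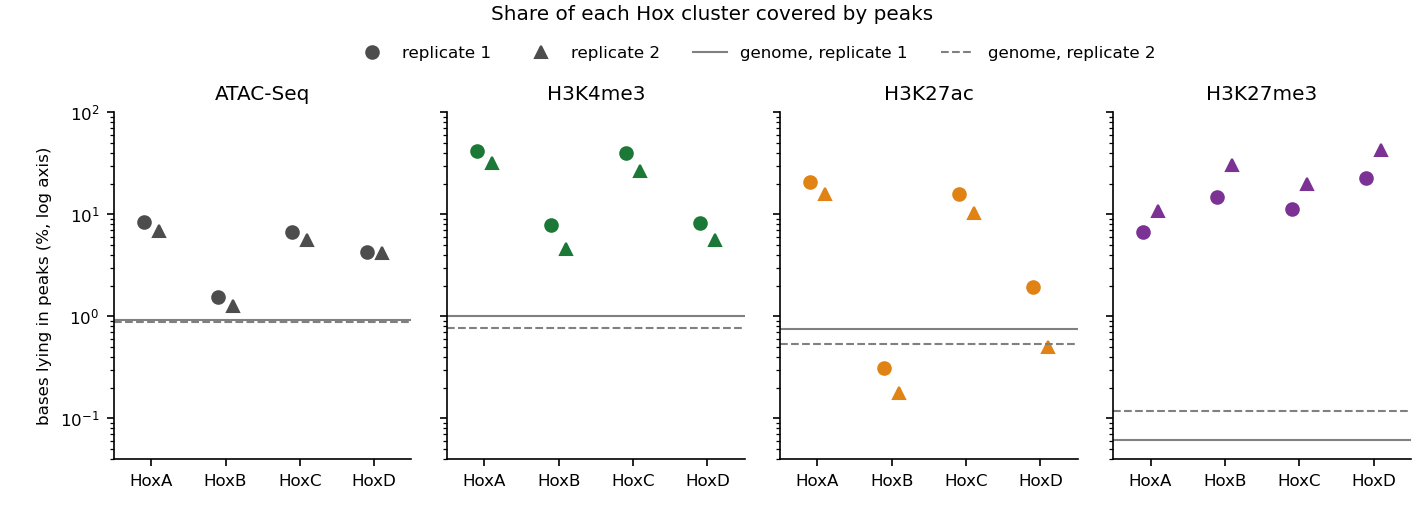
Percent of the bases of each cluster that lie in peaks (log axis), with circles for replicate 1, triangles for replicate 2, and lines for the genome. HoxA and HoxC lie above HoxB and HoxD in H3K4me3 and H3K27ac, with no overlap, and all 4 clusters lie above the genome in H3K27me3, from 6.77% in HoxA to 42.6% in HoxD.

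The 4 clusters together make up 0.0178% of the genome and held 3.74% and 3.20% of all H3K27me3 peaks, and 4.05% and 3.94% of the bases in them. For the other features they held 0.105% and 0.104% of ATAC-seq peaks, 0.317% and 0.367% of H3K4me3 peaks, and 0.207% and 0.188% of H3K27ac peaks. The median H3K27me3 fold was 4.13 and 3.99 in the clusters and 3.93 and 3.76 in the whole lists. H3K4me3 folds were instead lower in the clusters, with medians of 6.82 and 4.81, than in the lists, with 12.7 and 11.7. Of the 100 H3K27me3 peaks with the highest folds, 2 lay in the clusters in replicate 1 and 7 in replicate 2. The widest H3K4me3 peak of the clusters, which runs over 15386 bp across *Hoxa9* and reaches the start site of *Hoxa10* in replicate 1, was number 2 by width among all 20512 peaks of its list. In replicate 2 this region was split, and its widest peak of 6764 bp ranked 12.

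Along HoxA, the marks formed blocks that overlapped towards the 5′ end. The longest stretch without H3K27me3 measured 54.4 kb in replicate 1 and 65.9 kb in replicate 2 and held the protein-coding start sites of *Hoxa3* to *Hoxa9*, and in replicate 2 of *Hoxa10* as well. Between the start sites of *Hoxa9* and *Hoxa10*, 100% and 94.3% of bases lay in H3K4me3 peaks and 89.8% and 78.0% in H3K27ac peaks. From *Hoxa10* to *Hoxa11* these values were 44.1% and 33.5%, and 15.9% and 8.01%. From *Hoxa11* to *Hoxa13* H3K27me3 covered 35.6% and 51.6%, next to H3K4me3 at 30.5% and 17.1% and H3K27ac at 8.84% and 4.74%. No H3K27ac peak lay in the first 28.8 kb and 29.5 kb of the 3′ end. This stretch holds *Hoxa2* and the most 3′ start site of *Hoxa3*, whose H3K27ac peaks lay at its other start sites. In replicate 2 it also holds the start site of *Hoxa4*, 204 bp from the H3K27ac peak of that gene. In HoxC, the stretch without H3K27me3 lay at the 3′ end, over 43.3 kb and 26.9 kb, with *Hoxc4* and *Hoxc5* in both replicates. H3K27ac was highest between *Hoxc10* and *Hoxc11*, at 58.3% and 45.6%, and H3K27me3 between *Hoxc12* and *Hoxc13*, at 56.1% and 76.6%.

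HoxB and HoxD had no such block of H3K27ac. The longest stretch without it measured 147 kb and 158 kb of the 174 kb of HoxB, and 53.0 kb and 59.3 kb of the 96.8 kb of HoxD, where it held *Hoxd1* and the most 3′ protein-coding start sites of *Hoxd3* and *Hoxd4*. In HoxB, H3K27me3 was highest between *Hoxb7* and *Hoxb8*, at 69.3% and 85.8% of bases, and fell to 10.8% and 18.6% over the 77.2 kb between *Hoxb9* and *Hoxb13*, where H3K4me3 had no peak. Between *Hoxb1* and *Hoxb2* it was 1.08% and 11.1%, next to 23.4% and 14.2% for H3K4me3. In HoxD, H3K27me3 covered 60.6% and 82.7% between *Hoxd10* and *Hoxd11*, and 5.46% and 16.8% between *Hoxd4* and *Hoxd8*.

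**Figure D4:**
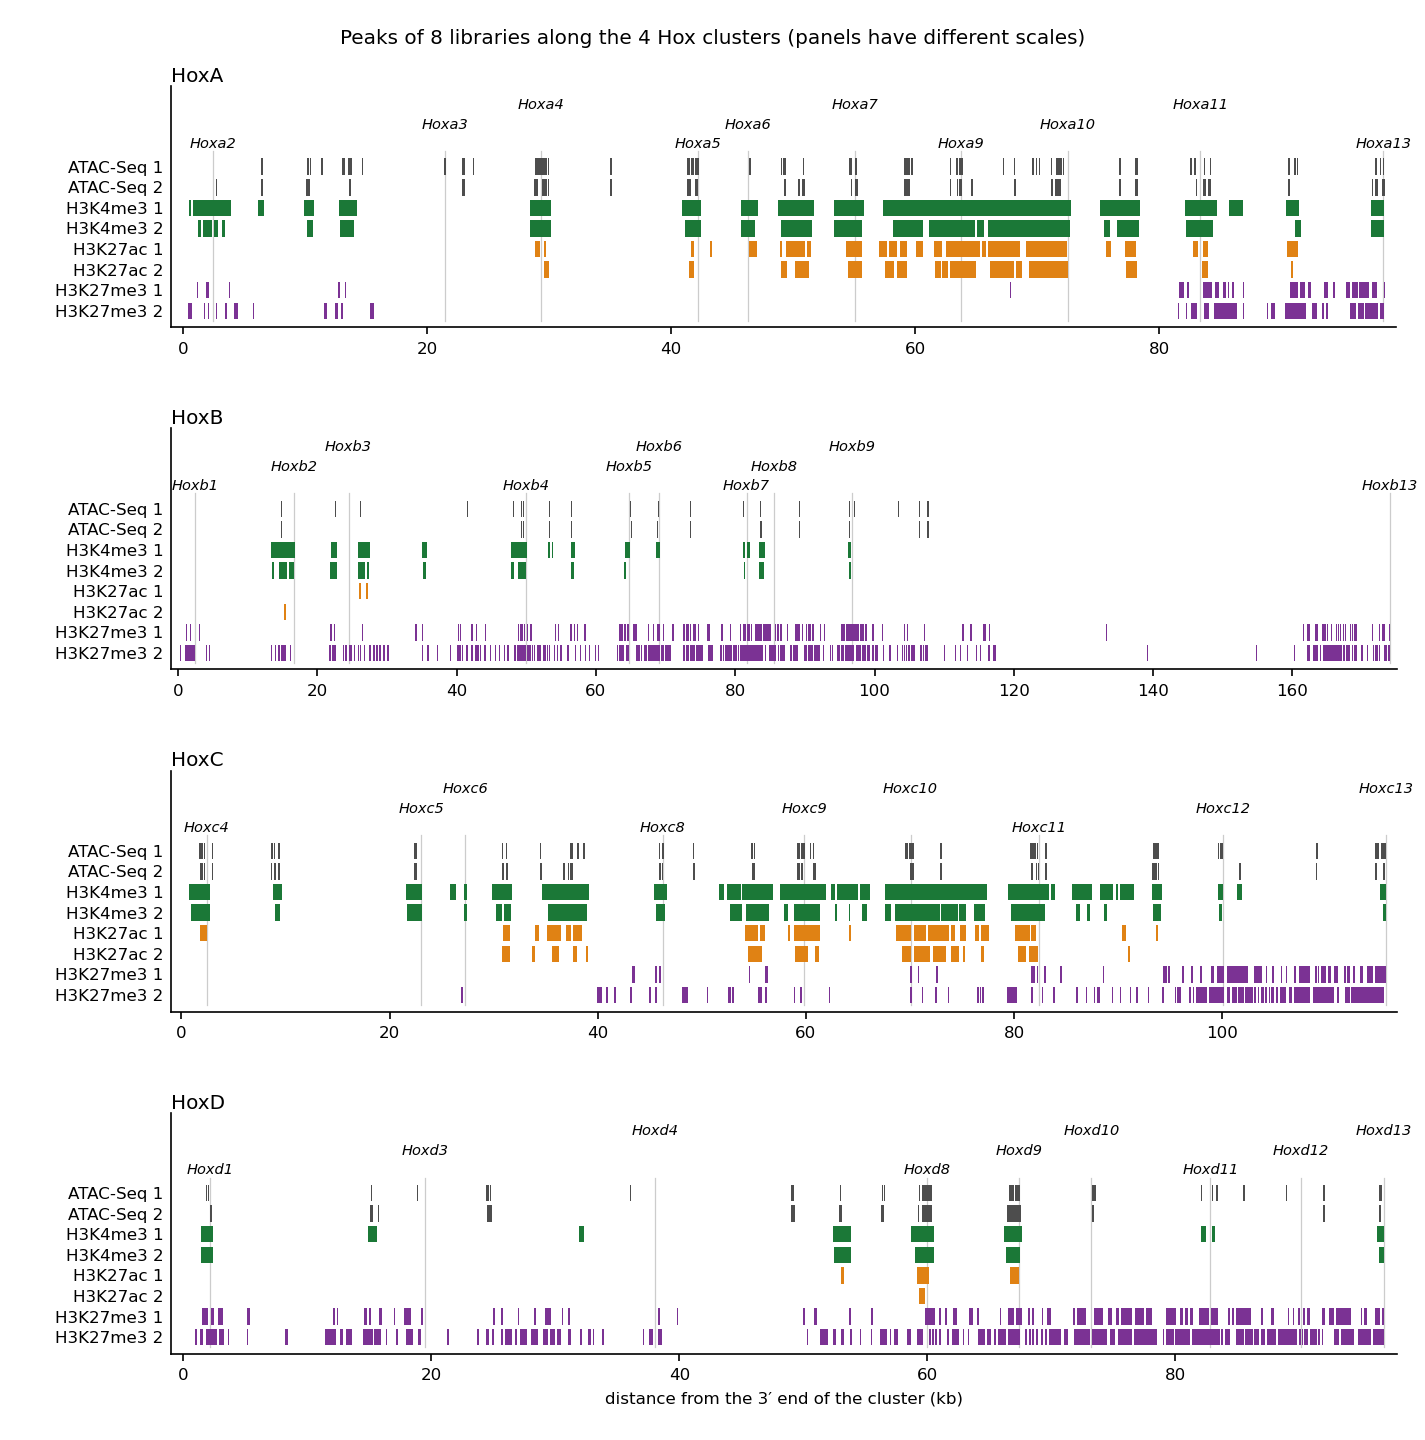
Peaks of the 8 libraries along each cluster, by distance from the 3′ end in kb, with grey lines at the protein-coding start site of each member nearest to the 3′ end. In HoxA the H3K27ac peaks are densest from Hoxa7 to Hoxa10 and the H3K27me3 peaks lie mostly at both ends, in HoxC H3K27me3 is densest towards Hoxc13, and in HoxB and HoxD H3K27me3 peaks are scattered along the cluster with few or no H3K27ac peaks.

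The 3′ members (paralogue groups 1 to 8, 22 members) and the 5′ members (groups 9 to 13, 16 members) were then compared. H3K27me3 covered a median of 6.50% and 18.5% of the promoter window in 3′ members and 33.1% and 66.1% in 5′ members. The ranges overlapped, from 0% to 53.5% and 70.8% in the 3′ members and from 0% to 64.4% and 85.5% in the 5′ members. The 5′ median was the higher in each cluster and each replicate. In HoxD the sides did not overlap, with 5.29% to 23.1% against 31.4% to 61.9% in replicate 1 and 13.4% to 43.9% against 65.9% to 82.8% in replicate 2. By counts, H3K27me3 was found in both replicates at 14 of 22 3′ members and 13 of 16 5′ members. H3K27ac was found at 8 of 22 and 6 of 16, H3K4me3 at 20 and 12, and ATAC-seq peaks at 19 and 14. With 1 kb around protein-coding start sites alone, H3K27ac was left at 5 of the 3′ members and at 6 of the 5′ members. H3K4me3 coverage had medians of 22.7% and 18.5% in 3′ members and 19.4% and 15.1% in 5′ members, a gap smaller than the range within either side.

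H3K4me3 did not run in the same direction in every cluster. In HoxA its median was higher in the 5′ members (57.4% and 44.4%) than in the 3′ members (30.1% and 23.6%), and the same was seen in HoxC (71.5% and 47.8% against 28.2% and 21.5%). In HoxD the 3′ members were higher, with 12% and 11.7% against 6.92% and 0%, and in HoxB as well, with 13.6% and 10.5% against 2.96% and 2.01%, although only *Hoxb9* and *Hoxb13* are 5′ members there.

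Within most paralogue groups, the state differed between clusters. In group 13, *Hoxa13*, *Hoxb13*, *Hoxc13* and *Hoxd13* all had H3K27me3 in both replicates and H3K27ac in neither, and *Hoxb13* alone lacked H3K4me3 and ATAC-seq peaks. In group 8, *Hoxb8*, *Hoxc8* and *Hoxd8* were all called with H3K4me3 and H3K27me3, and *Hoxd8* alone had H3K27ac. The H3K4me3 call of *Hoxb8* rested on peaks over 1 kb from its start sites, shared with *Hoxb7*. In group 9, *Hoxa9* and *Hoxc9* had H3K27ac without H3K27me3 in both replicates, and *Hoxb9* and *Hoxd9* were bivalent. In group 10, *Hoxa10* had no H3K27me3, *Hoxc10* had all 3 marks, and *Hoxd10* had H3K27me3 alone. In group 11, *Hoxa11* and *Hoxc11* had all 3 marks and *Hoxd11* had H3K27me3 alone. In group 4, *Hoxa4* had H3K27ac, *Hoxb4* was bivalent, and *Hoxc4* had H3K4me3 alone. *Hoxd4* was called bivalent only through the upstream start that it shares with *Hoxd3*.

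The overlap of marks on the same bases was then taken over whole clusters. Of the bases in H3K27ac peaks of both replicates, 587 of 13583 in HoxA, 317 of 10042 in HoxC and 0 of 480 in HoxD also lay in H3K27me3 peaks of both replicates, and HoxB had no such H3K27ac base. For H3K4me3, the overlap with H3K27me3 was 4.03% of bases in HoxA, 3.29% in HoxC, 22.3% in HoxB and 33.6% in HoxD. Among all bases, H3K27me3 peaks of both replicates covered 4130 of 98464 in HoxA and 9381 of 115750 in HoxC. They covered 17450 of 173941 in HoxB and 16028 of 96833 in HoxD. In HoxA, the overlap of H3K27ac and of H3K4me3 with H3K27me3 was thus close to this share of all bases. H3K27ac lay inside H3K4me3 peaks, for 94.4% of its bases in HoxA and 97.3% in HoxC. Over the 38 members, the mean coverage of the window by H3K27me3 had a Spearman correlation of −0.73 with that by H3K27ac and −0.58 with that by H3K4me3, and H3K4me3 and H3K27ac one of 0.78. These values describe neighbouring genes that share peaks and libraries. H3K27me3 and ATAC-seq coverage gave −0.12. Open chromatin was found in both replicates at *Hoxb6*, *Hoxd10* and *Hoxd12*, which had H3K27me3 without H3K4me3, a combination held by 0.552% of protein-coding genes, although at *Hoxd12* no ATAC-seq peak lay within 1 kb of a TSS.

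The promoter sequences of the members were richer in CpG than most. In the 500 bases before the most upstream TSS, the median was 20 CpGs over 38 members and 12 over 21924 protein-coding genes. An observed to expected CpG ratio of at least 0.6 was reached by 19 members (50%) and by 32.8% of protein-coding genes. The 14 members with H3K27ac had a median of 22 CpGs, the other 24 members 19.5, and the 6 members with H3K27me3 alone 12.5. Within each set the range was wide, from 3 to 55, from 7 to 51 and from 7 to 36. *Hoxa4* had 55 CpGs and *Hoxd13* 51, *Hoxa9* had 3 before its most upstream start, and *Hoxb1* had 7. Motifs were searched on both strands in the 250 bases before this TSS. TGATTNAT, the form bound by Hox and Pbx proteins together, was found in 3 members (7.89%) and in 2.45% of protein-coding genes, and those 3 were *Hoxa2*, *Hoxb3* and *Hoxb9*. The E-box CAGCTG, bound by myogenic factors such as MyoD, was found in 6 members (15.8%) against 12.3%. TATAAA, the TATA box, was found in 6 members (15.8%) against 11.5%. The direct repeat bound by retinoic acid receptors was found in 0 members, as in all but 0.00456% of protein-coding genes. None of these motifs contains another, and a match describes the sequence alone.

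The clusters also carry microRNA genes, which are known to act on Hox transcripts. The mature sequences shown here are from RefSeq (GRCm38.p6), with the seed, bases 2 to 8, in capitals, and show which products share a target seed across clusters that differ in state.
mmu-miR-196a-5p: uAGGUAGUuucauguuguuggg
mmu-miR-196b-5p: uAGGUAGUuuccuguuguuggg
mmu-miR-10a-5p: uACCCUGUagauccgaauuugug
mmu-miR-10b-5p: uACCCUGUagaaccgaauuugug

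The same mature miR-196a-5p is made from *Mir196a-1* in HoxB (chr11:96265187-96265208) and *Mir196a-2* in HoxC (chr15:102973365-102973386). The same window rule was used around the annotated start of each microRNA gene. This start is that of the short precursor, so the states describe the chromatin around it and not a known promoter. *Mir196a-1* had H3K27me3 alone, with folds of 4.92 and 5.52. *Mir196a-2* instead had H3K4me3 at 11.1 and 10.1 and H3K27ac at 9.58 and 5.15. *Mir196b* in HoxA, which shares the seed, lay in the block around *Hoxa9* and had H3K4me3 at 17.3 and 18.2 and H3K27ac at 19.2 and 13.2. *Mir10a*, next to *Hoxb4*, had H3K4me3 at 14.7 and 10.2 and H3K27me3 at 5.63 and 6.85, and *Mir10b*, next to *Hoxd4*, had H3K27me3 alone, at 3.38 and 3.42. *Mir615* in HoxC had H3K4me3 at 14.2 and 10.2 without the other marks. Several of these peaks are also those of neighbouring Hox genes, while the called states differed in places, since *Hoxb9*, near *Mir196a-1*, and *Hoxd4* were bivalent.

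Of 41 other annotated genes with a TSS inside the clusters, most of them noncoding, 35 had H3K27me3 in both replicates (4.81% of protein-coding genes). H3K4me3 was found at 30 (60.8%), ATAC-seq peaks at 28 (67.8%) and H3K27ac at 14 (46.6%). Many of these genes lie close together and share peaks, such as *Hoxa11os* and several short RNAs inside it. The counts are therefore not of separate loci. The percentages beside the counts are of protein-coding genes, an unlike set, and no share over noncoding genes was computed. *Hotair*, a long noncoding RNA of HoxC that has been tied to Polycomb, had H3K4me3 at 7.00 and 4.41, H3K27ac at 4.39 and 5.52 and H3K27me3 at 3.75 and 5.13, with no ATAC-seq peak. *Hoxa11os*, the antisense transcript of *Hoxa11*, had H3K27ac at 5.75 and 5.52 and H3K27me3 at 5.25 and 6.14, the peaks of *Hoxa11* itself. *Haglr* of HoxD was bivalent, with H3K4me3 at 6.82 and 4.56.

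The nearest protein-coding genes outside the clusters were read by the same rule, whatever their distance. Of these 16 genes, 2 on either side of each cluster, 11 had H3K4me3 and H3K27ac without H3K27me3 in both replicates (45.4% of protein-coding genes). The 3 with H3K27me3 alone (0.953%) were *Evx1*, beside *Hoxa13*, *Evx2*, beside *Hoxd13*, and *Skap1* near *Hoxb1*. *Evx1* had H3K27me3 folds of 5.63 and 7.19 and *Evx2* of 6.75 and 7.19. Both are homeobox genes related to the Hox genes. *Calcoco2* and *Ttll6* had none of the 3 histone marks in either replicate. A set of 14 related homeobox genes outside the clusters, the Evx, Gsx, Pdx, Cdx and Dlx genes, was also read. *Evx1* and *Evx2* are counted in this set and among the 16 genes above. Of the 14, 12 had H3K27me3 in both replicates (4.81% of protein-coding genes) and 0 had H3K27ac in both (46.6%). *Dlx1*, for example, had H3K27me3 at 6.00 and 8.56 and H3K4me3 at 9.16 and 10.3. Of these 14 genes, 6 were bivalent (3.06%), 6 had H3K27me3 alone (0.953%) and 2, *Pdx1* and *Cdx4*, had no mark in both replicates.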

How the data were processed

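ATAC-seq and ChIP-seq peak lists of 8 libraries, out of 272 samples in the series, were analysed. Per the submitters' processing notes and the study's methods, reads were trimmed with Trim Galore 0.6.10 and aligned to mm10 with BWA 0.7.17-r1188. Low-quality, duplicate and blacklisted alignments were removed, ATAC-seq reads were shifted for the Tn5 offset, and peaks were called with MACS2 2.2.6. The deposited lists give, as the authors' caller wrote them, an integer score, the fold enrichment at the summit (a ratio) and the −log10 p-value and q-value of each peak. The smallest −log10 q was between 1.32 and 2.02 in the ATAC-seq, H3K4me3 and H3K27ac lists, and the H3K27me3 lists were called on p, with a smallest −log10 p of 3.01. Read depth is unknown, and ChIP inputs were not analysed here.

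Peaks were intersected (at least 1 bp) with 3 kb on either side of each TSS in GENCODE M21, and peak bases were summed over each cluster, in Python 3.11.15 with numpy 2.4.6 and pandas 2.3.3. Sequences were read with samtools 1.23.1 from GRCm38.p6, and plots drawn with matplotlib 3.10.9. On simulated windows, 899 of 899 planted overlaps among 3000 windows were recovered. No test was made. All 38 members are accounted for, with values for those with H3K27ac or H3K27me3, or without H3K4me3, in both replicates. Promoter sequences were to be taken before the 5′-most TSS, and for *Hoxa9* the next TSS was used because an exon overlaps that window. The members and gene lists were chosen with earlier results of these data known. The alternatives were narrower windows, other start sites, stricter peaks or overlap, either replicate, another 3′ and 5′ split, wider clusters and each replicate alone. 1 Hox gene is not reported here.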

Additional observations from a re-analysis of the deposited data

How the results depend on the processing

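No count or coverage moved by more than the set limits (1.5 times for counts, 1 SD between replicates for coverage) with windows of 1 kb, an overlap of at least 100 bp, or H3K27me3 peaks limited to a q of at most 0.05. With peaks limited to a −log10 q of at least 5, H3K27me3 was found at 6 members, 2 on the 3′ and 4 on the 5′ side. The states became 0 with all 3 marks and 6 with H3K4me3 and H3K27me3. H3K4me3 alone was found at 13 members, H3K27me3 alone at 0 and none at 7. The shares of protein-coding genes were not computed at this limit. Mean H3K27me3 coverage then was 1.86% of HoxA, 4.46% of HoxB, 6.33% of HoxC and 5.31% of HoxD, so that HoxC lay above HoxD, while ATAC-seq covered 1.21% of HoxB and 3.9% of HoxD and H3K27ac 0% of HoxB. With the 5′-most TSS alone, 1 member had H3K4me3 alone and 1 had none, and with protein-coding transcripts alone 4 had H3K4me3 alone. With 1 kb around protein-coding start sites, chosen after the data were seen, 5 had H3K4me3 alone and 5 members of the 3′ side had H3K27ac. Peaks in either replicate gave 13 members with all 3 marks, 0 with H3K4me3 alone and 13 members of the 3′ side with H3K27ac. A single replicate gave 8 to 10 members with all 3 marks and 1 with H3K4me3 alone.

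Splitting between groups 5 and 6 moved members from the 3′ to the 5′ side by construction and gave, on the 3′ and 5′ sides, 11 and 22 members with ATAC-seq peaks, 13 and 19 with H3K4me3 and 4 and 10 with H3K27ac, and 9 with H3K27me3 on the 3′ side. Clusters widened by 10 kb gave H3K27me3 over 13.4% of HoxA and ATAC-seq peaks over 3.68% of HoxD. HoxB from *Hoxb9* to *Hoxb1*, also chosen after the data were seen, had mean coverage of 2.04% for ATAC-seq, 11.1% for H3K4me3 and 0.439% for H3K27ac. The cause of the other changes was not tested. No paired analysis was possible because the results come from no test. Unknown depth limits what the lack of a peak can show.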
